A study of Homo sapiens with 12 samples.

Results

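The constructs described here carried 2 different sgRNAs against the same gene. They were chosen by name: both positions of the construct hold sgRNAs named for one gene, the sgRNAs differ, and neither is non-targeting. In a library of 1301881 dual-sgRNA constructs this gave 1086 constructs, which are both orders of the sgRNA pair for each of 543 genes. For each gene the question was whether targeting it with both sgRNAs at once changed cell growth, or the response to niraparib, beyond what each of the same sgRNAs did when its partner was one of the 55 non-targeting sgRNAs.

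The cells were K562, a human leukemia line, engineered for CRISPR interference (CRISPRi), and every group consisted of these cells carrying the whole library. There were 12 sequencing libraries in 2 screens, 2022 and 2023, each with 2 replicate cultures. In both screens the starting sample (T0) was taken on day 9 after transduction, when each culture was split into a vehicle (DMSO) arm, called the reference, and a niraparib arm. In 2022 the drug was given at 2 µM for 3 days and both arms were harvested on day 18. In 2023 it was given at 2 µM and then 3 µM over 4 days and both arms were harvested on day 19.

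In CRISPRi a nuclease-dead Cas9, usually fused to a repressor domain, is brought by an sgRNA to the start of a gene and hinders its transcription. The cut is not made, so knockdown is partial and depends on where the sgRNA sits relative to the start site, and a pair of sgRNAs at one promoter is a common way to deepen it. Constructs in cells that divide more slowly or die become rarer, so the share of reads of a construct over time reports the growth of the cells that carry it. Niraparib inhibits PARP1 and PARP2, enzymes that mark DNA breaks with ADP-ribose. Cells lacking homologous recombination are known to be sensitive to it, whereas loss of PARP1, on which the drug is trapped, is known to protect.

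The sgRNA protospacers are not printed here, and the positions in the sgRNA names have no stated genome build, so only distances between the sgRNAs of a gene are used. The promoter windows of 4 genes on which the results below turn are shown to give the target context. The NAA50 and UBA3 pairs were far more depleted than either sgRNA alone, and the FANCE and MUS81 pairs were far more sensitive to niraparib. The sequences are from RefSeq on GRCh38.p14, read 5′ to 3′ on the strand of the gene, 300 bases each. Capitals mark the last 50 bases, which begin at the annotated start of transcription. They lie at chr3:113746200-113746499 on the minus strand (NAA50), chr3:69080316-69080615 on the minus strand (UBA3), chr6:35452088-35452387 on the plus strand (FANCE) and chr11:65860183-65860482 on the plus strand (MUS81).
NAA50: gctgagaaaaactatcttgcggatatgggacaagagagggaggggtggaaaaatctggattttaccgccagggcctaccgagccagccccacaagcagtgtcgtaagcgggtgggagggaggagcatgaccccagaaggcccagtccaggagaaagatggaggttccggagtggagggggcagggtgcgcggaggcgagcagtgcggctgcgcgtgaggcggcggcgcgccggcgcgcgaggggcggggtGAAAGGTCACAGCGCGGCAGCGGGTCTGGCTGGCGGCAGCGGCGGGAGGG
UBA3: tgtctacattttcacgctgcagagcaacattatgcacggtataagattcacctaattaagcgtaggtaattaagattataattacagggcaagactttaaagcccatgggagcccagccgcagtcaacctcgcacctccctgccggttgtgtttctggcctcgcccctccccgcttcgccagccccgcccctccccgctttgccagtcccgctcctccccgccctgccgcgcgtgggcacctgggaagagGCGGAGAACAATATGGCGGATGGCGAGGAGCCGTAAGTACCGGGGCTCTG
FANCE: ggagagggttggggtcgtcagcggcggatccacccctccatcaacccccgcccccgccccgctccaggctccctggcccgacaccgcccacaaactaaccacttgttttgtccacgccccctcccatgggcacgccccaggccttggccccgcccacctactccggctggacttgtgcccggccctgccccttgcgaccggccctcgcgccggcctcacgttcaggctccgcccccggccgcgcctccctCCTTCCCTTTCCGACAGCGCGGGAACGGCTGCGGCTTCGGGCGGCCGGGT
MUS81: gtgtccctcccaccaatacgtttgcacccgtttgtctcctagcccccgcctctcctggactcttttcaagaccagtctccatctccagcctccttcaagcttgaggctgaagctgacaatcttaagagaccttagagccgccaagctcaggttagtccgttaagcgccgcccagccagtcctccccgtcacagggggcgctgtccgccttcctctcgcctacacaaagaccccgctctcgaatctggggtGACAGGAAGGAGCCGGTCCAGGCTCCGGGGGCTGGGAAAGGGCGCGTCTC
GC content was 67.3% for NAA50, 58.7% for UBA3, 73.7% for FANCE and 61.0% for MUS81, against a median of 58.7% over 35116 promoter windows and 63.7% over those of the library's genes. The motif NGG, the neighbouring sequence that the commonly used Streptococcus pyogenes Cas9 needs, occurred 72 times over both strands of the NAA50 window, 62 times in UBA3, 98 times in FANCE and 63 times in MUS81, overlapping matches counted. The median was 57 over all windows, and 100.0% of them held it. The sgRNAs used here could not be placed on these windows.

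The libraries held 182.6 to 460.7 megareads, and the 1086 constructs took 0.0801 to 0.0884% of them. Their median count was 92.5 to 232 reads per construct and library, and 0.184 to 1.934% of them had no read in a given library. Both orders of a pair were summed. The pairs of 520 genes, 1040 constructs, had a mean T0 count of at least 50 reads and were tested, with means of 51 to 1284.5. The pairs of 23 genes, 46 constructs, fell below that, with means of 0.8 to 48.2 reads, and have no test here. Among these were SARS (0.8 reads), PLK1 (5.0), PRIM2 (8.5), CHEK1 (15.8), POLA1 (34.0), RPA1 (48.0) and RPA2 (48.2). T0 followed transduction by 9 days, so any loss before T0 is not part of the growth values. At T0 the tested pairs were at a median log2 value of -0.04 (SD 0.42 over genes) relative to the product of their sgRNAs' levels with non-targeting partners. The untested pairs were at -0.23, and the 1485 pairs of different non-targeting sgRNAs at -0.02 (SD 0.157).

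Replicate 1 of the 2022 screen stood apart for DNA repair genes. Over the 29 genes of the homologous recombination list, median pair growth was -1.26 in that culture and -0.88, -0.74 and -0.74 in the other cultures, and it was the lowest of the 4 for 25 genes. The single sgRNAs did the same. Their list medians were -0.54 and -0.65 in that culture and between -0.20 and -0.32 in the others. The median niraparib response of the pairs was weakest there, at -0.69 against -0.78, -1.17 and -1.01, and it was weakest for 18 of the 29 genes. Growth and response share the reference endpoint library, which a shift would move in opposite directions in these measures. They are therefore not independent signs of an unusual culture. Whether the shift lay in that library or in the culture was not tested. Over all 520 genes the median growth of the pairs was -1.07, -0.96, -1.10 and -1.04 in the 4 cultures. Where leaving out this or another culture moved a count by more than 1.5 times, the count without it is given beside the result.

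Growth is the log2 change in read share from T0 to the reference endpoint, set to 0 for constructs with 2 non-targeting sgRNAs, and is given as mean ± SD over the 4 cultures. By this measure the pairs ranged from -5.94 to 0.79 with a median of -1.08. In edgeR's quasi-likelihood test at an adjusted p of 0.05, 377 of 520 genes (72.5%) were lower than the non-targeting controls and 5 (0.962%) were higher. Pairs of non-targeting sgRNAs, tested the same way, were lower in 5 of 1485 (0.337%) and higher in 8 (0.539%). The 5 genes whose pairs grew faster were C12orf66, CBL, CNOT6L, GPS2 and MTF2. C12orf66, now named KICS2, belongs to a complex that restrains mTORC1, and its pair was at 0.79 ± 0.13 (SD, n = 4) where its sgRNAs alone were at 0.64 and 0.78. MTF2, a Polycomb repressive complex subunit, was at 0.39 ± 0.18 with its pair and at 0.29 and 0.31 with single sgRNAs. None of these 5 pairs was called different from both of its single sgRNAs.

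The central comparison set each pair against both of its sgRNAs with non-targeting partners (110 constructs per sgRNA). A gene was called only if the pair differed in the same direction from the one sgRNA and from the other. In growth, 181 of 520 genes (34.8%) were lower than both, against 4 of 1485 non-targeting pairs (0.269%). None was higher than both (1 at an unadjusted edgeR p under 0.05, and 0 with DESeq2). Of the 181, 178 (98.3%) were lower than the nearer sgRNA in 4 of 4 cultures. The gain, which is the pair's growth minus that of the nearer sgRNA, ranged over these genes from -4.06 to -0.20 with a median of -0.81. It exceeded 0.5 in size for 148 genes, 1 for 69 and 1.5 for 23. For comparison, the growth of non-targeting pairs minus that of the first sgRNA of each, not the nearer, had an SD of 0.0835. Without replicate 1 of 2022, 142 genes were called, all among the 181, and 125 were called whichever culture was left out. Each screen alone called 141 (2022) and 123 (2023) genes, with 109 in common, and a test of the difference between the screens called 0 genes (32 at an unadjusted edgeR p under 0.05, smallest adjusted p 0.772).

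The remaining genes can be described by the separate tests against each sgRNA. In these, 117 genes were lower than the weaker sgRNA but not different from the stronger one. Another 210 were called different from neither. The share of genes called below both was smallest where the stronger sgRNA had little effect of its own and was not largest where that effect was strongest. It was 3 of 118 (2.54%) where that sgRNA's own growth was above -0.1, 38 of 118 (32.2%) between -0.5 and -0.1, 88 of 172 (51.2%) between -1.5 and -0.5, and 52 of 112 (46.4%) below -1.5.

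The largest gain belonged to PPCS, which joins cysteine to phosphopantothenate in the synthesis of coenzyme A. Summed over both orders, the pair had 484 and 480 reads at T0 in the 2022 cultures and 376 and 394 in the 2023 cultures, and 10, 28, 9 and 9 reads at the reference endpoint. Its growth was -6.77, -5.22, -5.90 and -5.86 in the 4 cultures, where the sgRNAs alone were between -1.83 and -1.70 and between -1.93 and -1.82. All 4 pair values lay more than 3 log2 units below every single-sgRNA value. The gain was -4.06 (SE 0.22, edgeR adjusted p = 2.73e-21), and the reads left at the endpoint were few, so its exact size rests on counts near the bottom of the range.

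PPCDC, the decarboxylase that acts directly after PPCS, behaved alike in direction but with unequal sgRNAs. Its pair was at -5.02, -5.05, -4.64 and -5.81, the stronger sgRNA between -3.08 and -2.90 and the weaker between -0.97 and -0.83. The pair was below both in every culture, with a difference from the stronger sgRNA of -2.08 (SE 0.14, edgeR adjusted p = 6.95e-21). These 2 pairs were the most depleted of all named here.

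Among genes of RNA turnover, SMG5, which takes part in nonsense-mediated mRNA decay, went from a small effect to a large one. Its single sgRNAs were at -0.16 to -0.10 and -0.24 to -0.14 over the cultures. The pair was at -2.63, -2.38, -2.32 and -2.22, with 282, 269, 210 and 214 reads at T0 and 112, 115, 66 and 67 at the endpoint. The groups did not overlap, and the gain was -2.20 (SE 0.17, edgeR adjusted p = 2.17e-15). XRN2, the nuclear 5′-to-3′ exonuclease that helps end transcription, gained -2.45 (SE 0.21, edgeR adjusted p = 6.58e-14) over sgRNAs that stayed between -1.62 and -1.48. Its pair was at -4.61, -3.22, -5.0 and -3.61, a wide spread but without overlap. RPP40, a protein subunit of the RNase P and RNase MRP ribonucleases, had a pair at -3.51 ± 0.70 (SD, n = 4) and a gain of -1.95 (SE 0.26, edgeR adjusted p = 1.98e-08), from a mean of 154.0 reads at T0.

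UBA3 and COPS5 were also among the largest gains. UBA3 is the catalytic subunit of the enzyme that activates NEDD8, a ubiquitin-like protein attached to cullin ligases. Its pair was at -2.43, -2.40, -2.82 and -2.91, while its sgRNAs alone never went below -0.97, and the gain was -1.86 (SE 0.13, edgeR adjusted p = 4.96e-20). COPS5, the subunit of the COP9 signalosome that cleaves NEDD8 off, was at -3.18, -2.73, -3.51 and -3.30 as a pair and gained -1.93 (SE 0.15, edgeR adjusted p = 9.02e-16). Its sgRNAs alone lay between -1.32 and -0.89. For both genes every pair value was more than 1 log2 unit below the lowest single value.

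The other genes with the largest gains came from unlike processes. CENPM, part of the centromere-associated network on which kinetochores are built, had sgRNAs at -1.63 and -1.59 and a pair at -3.96 ± 0.43 (SD, n = 4). GAPDH, the glycolytic enzyme, went from -1.30 ± 0.22 and -1.43 ± 0.23 to -3.72 ± 0.59. NAA50, an N-terminal acetyltransferase, went from values between -0.78 and -0.17 to -2.13, -2.05, -2.55 and -2.39, with no overlap. MVD, of the mevalonate pathway, had a pair at -3.65 ± 0.44 from a mean of only 144.0 reads at T0, and its gain of -1.74 had an SE of 0.27. The gains were -2.36 (CENPM, SE 0.16), -2.29 (GAPDH, SE 0.16) and -1.78 (NAA50, SE 0.13), and all 4 passed with edgeR adjusted p of 3.18e-07 or less.

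Within DNA repair, 10 of the 29 homologous recombination genes measured were below both single sgRNAs in growth (8 without replicate 1 of 2022), a share near the 34.8% over all 520 genes, with a list median of -0.14 for the pair minus the stronger sgRNA against -0.16 over all genes tested. The largest differences were in genes that start repair by trimming DNA ends. MRE11A (now MRE11), the nuclease of the MRN complex, was at -2.96, -2.02, -2.28 and -2.14 as a pair, with single sgRNAs between -0.84 and -0.41, and it gained -1.80 (SE 0.15, edgeR adjusted p = 1.69e-14). NBN, its regulatory partner, had a pair at -2.10 ± 0.41 (SD, n = 4) and sgRNAs at -0.26 and -0.38. RAD50, the third subunit of the complex, was at -0.77 ± 0.12 with sgRNAs at -0.68 and -0.38 and was not called. RBBP8, which activates the trimming, was at -3.09 ± 0.50 with its pair and -1.44 and -0.48 with single sgRNAs. RAD51C, a recombination mediator, was at -2.71 ± 0.22 against -1.31 and -0.95.

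Genes of the BRCA group differed from this. BRCA1 was called, with a pair at -1.27 ± 0.30 (SD, n = 4), sgRNAs at -0.11 and -0.91 and a difference from the stronger of -0.37 (SE 0.09, edgeR adjusted p = 0.0015), but it was not called without replicate 2 of 2022 (-0.32), in the 2023 screen alone (-0.37) or in one of the orders (-0.26). The PALB2 call (-0.32, edgeR adjusted p = 0.0465) was lost under 11 of 13 alternatives, with adjusted p of 0.0442 to 0.596. BARD1 (-0.05, SE 0.12) and BRCA2 (-0.09, SE 0.11) were not called against the stronger sgRNA, and both were lower than the weaker one (-0.49, SE 0.13, and -1.10, SE 0.11).

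Base excision and single-strand break repair showed a split. Of 6 genes, 3 were below both sgRNAs, where 34.8% of all genes were. Among the 3 were XRCC1, the scaffold of single-strand break repair, and its ligase partner LIG3. The XRCC1 pair was at -2.67, -1.24, -1.72 and -1.90, its sgRNAs at -0.39 to -0.12 and -1.30 to -0.50, so in each culture the pair was lowest, and the difference from the stronger sgRNA was -1.14 (SE 0.12, edgeR adjusted p = 3.05e-11). LIG3 had a pair at -1.71 ± 0.18 (SD, n = 4) and sgRNAs at -0.51 and -0.08. POLB, the gap-filling polymerase, was near the controls either way, with a pair at -0.01 ± 0.24 and sgRNAs at 0.03 and 0.01. LIG1 and DNPH1 were not called. The list median of the pair minus the stronger sgRNA was -0.60, against -0.16 over all genes tested.

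The helicase complex of BLM, TOP3A, RMI1 and RMI2 separates joined DNA strands after recombination. It had 3 of 4 genes below both sgRNAs, where 34.8% of all genes were. Its median difference was -0.64, against -0.16 over all genes tested. The RMI1 call was lost without replicate 2 of 2022, without replicate 2 of 2023, in the 2023 screen alone and in one of the orders. RMI2 (-1.13 ± 0.10), TOP3A (-1.08 ± 0.15) and RMI1 (-1.13 ± 0.21; SD, n = 4 for each) reached nearly one level as pairs, although their sgRNAs alone ranged from -0.71 to -0.02. BLM was at -1.29 ± 0.14 with its pair and already at -1.05 and -1.15 with single sgRNAs, and was not called. In the RNase H2 enzyme, which removes ribonucleotides from DNA, RNASEH2A (-1.10 ± 0.02 against -0.35 and -0.03) and RNASEH2C (-2.02 ± 0.19 against -0.72 and -1.06) were called and RNASEH2B (-0.47 ± 0.06 against -0.29 and -0.26) was not. Among structure-specific nucleases and POLQ, against the same 34.8% over all genes, 1 of 6 genes was called. It was EME1, a MUS81 partner, at -1.91 ± 0.30 against -0.09 and -0.33, while the MUS81 pair itself was at -0.12 ± 0.08.

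The ATR-CHK1 checkpoint, which holds cells with stalled replication forks, had 4 called of 10 tested, a share near the 34.8% over all genes, and 2 (ATRIP and RAD17) without replicate 2 of 2022, in the 2022 screen alone or in either order alone. The 4 were ATR, its partner ATRIP (-2.23 ± 0.42 as a pair, SD, n = 4, against -0.69 and -0.14), RAD17, which loads the checkpoint clamp (-2.71 ± 0.20 against -1.23 and -0.69), and RAD9A of that clamp. The list median of the pair minus the stronger sgRNA was -0.35. Of the replisome and polymerase genes 10 of 21 tested were called, where 34.8% of all genes were, and leaving out a culture gave 7 (without replicate 2 of 2022) to 9. RFC2, a clamp loader subunit, was at -1.34 ± 0.22 as a pair with sgRNAs at only -0.13 and -0.07. CDC6, which loads the MCM helicase, was at -1.49 ± 0.26 against -0.05 and -0.68. POLD2, of DNA polymerase delta, had a pair at -2.02 ± 0.37 against -1.01 and -0.99, and MCM5, of the replicative helicase, at -1.98 ± 0.31 against -1.05 and -0.75. The list median was -0.42. Another 5 genes of this list were below the read minimum at T0, namely POLA1, PRIM1, PRIM2, RPA1 and RPA2, as were CHEK1 and CLSPN of the checkpoint list.

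The other lists can be read against the same 34.8% over all genes. The Fanconi anemia list had 4 of 16 called and a median difference of -0.14 (2 called without replicate 1 of 2022 and 0 in the 2023 screen alone), namely FANCC, FANCE, FANCM and WDR48. Non-homologous end joining had 1 of 6 (LIG4, median -0.10), which was lost without replicate 1 of 2022, in the 2023 screen alone, in one of the orders and with DESeq2. The 53BP1-shieldin axis had 2 of 10 (RIF1 and RNF8, median -0.01), of which RNF8 was lost whichever culture was left out. Polycomb complexes had 1 of 7 (RBBP4, median 0.07), called whichever culture was left out but not in the 2022 screen alone or in either order alone. Ribosomal RNA processing had 2 of 4 tested (NHP2 and RRP12, median -0.30), but NHP2 was lost without either replicate of 2022 and without replicate 2 of 2023. Centromere and mitosis had 3 of 6 (C16orf59, CENPM and HJURP, median -0.62), and leaving out a culture gave 2 or 3. Serine and one-carbon metabolism had 1 of 6 (PSPH, median -0.25), which was lost without either replicate of 2022 and without replicate 2 of 2023. PARP1 and ADP-ribose turnover had 0 of 5 (median -0.09), as had the PP2A and PP4 phosphatases (median -0.03), and mTORC1 restraint had 0 of 2 (median 0.07). DESeq2 called 0 genes of these 3 lists as well, and 0 of their 12 genes were below both at an unadjusted edgeR p under 0.05. PARP1 itself was at -0.91 ± 0.35 (SD, n = 4) as a pair and at -0.82 and -0.67 with single sgRNAs. CAD, of pyrimidine synthesis, was at -4.94 ± 0.06 with sgRNAs at -3.84 and -4.38, a difference of -0.68 (SE 0.29) that did not pass. DNMT1, the maintenance DNA methyltransferase, was at -3.54 ± 0.13 with sgRNAs at -2.96 and -2.82 and did pass, by -0.60 (SE 0.12, edgeR adjusted p = 0.000101), although not in the 2023 screen alone (-0.47).

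A separate scale is the sum of the 2 single effects, which is what independent effects would give on the log2 scale. Against it, 80 of 520 pairs (15.4%) were lower and 134 (25.8%) higher in growth, against 4 (0.269%) and 3 (0.202%) of the 1485 non-targeting pairs. Of the 181 genes that gained, 74 were below the sum, 31 above it and 76 did not pass the test against it. The pair minus its sum was -2.06 for SMG5 (edgeR adjusted p = 3.32e-13), -2.31 for PPCS (adjusted p = 4.46e-11) and -1.56 for NAA50 (adjusted p = 3.67e-13). DNMT1 gained over each sgRNA and still was 2.22 above the sum (adjusted p = 2.05e-18), and CAD was 3.15 above (adjusted p = 4.81e-09). The differences of MBTPS2 (-0.17) and RIF1 (0.14) from their sums did not pass the test.

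Placing the stronger sgRNA in both positions gives a control with the same number of sgRNAs and a single target site. For 447 genes both kinds of construct had enough reads. The repeated sgRNA is a single construct per gene whose own error enters this test, and non-targeting pairs were not tested this way. Its counts are therefore not on the same footing as the 181 gains. The different sgRNAs gave lower growth than the repeated sgRNA in 62 genes (13.9%) and higher growth in 17 (3.80%). Of the 62, 61 were also below both sgRNAs with non-targeting partners, and 165 of the 181 were among the 447. SMG5 was at -2.39 ± 0.18 (SD, n = 4) with different sgRNAs and at 0.30 with the repeated one, a difference of -2.71 (edgeR adjusted p = 1.55e-08). INPPL1, a phosphoinositide phosphatase, was at -1.78 ± 0.32 and -0.27, a difference of -1.52 (adjusted p = 4.24e-07). MRE11A was at -2.35 ± 0.42 and -0.61, and PPCS at -5.94 ± 0.64 and -1.97. For FANCC (-0.78 and -0.74), BRCA1 (-1.27 and -1.46) and RIF1 (-1.23 and -1.09) the kinds of construct were not distinguishable. Leaving out a culture gave 40 to 50 genes lower, with 40 without replicate 2 of 2022 or replicate 1 of 2023. It gave 6 to 8 higher, so that count fell whichever culture was left out.

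In 17 genes the repeated stronger sgRNA was the more depleted. GEMIN2, needed for snRNP assembly, was at -2.70 with different sgRNAs and -4.58 with the stronger one in both positions (difference 1.99, edgeR adjusted p = 0.000117). PKMYT1, which inhibits CDK1, was at -1.30 and -2.56, and AARS2, the mitochondrial alanyl-tRNA synthetase, at -1.85 and -2.65. In the test against the stronger sgRNA with non-targeting partners, 6 pairs were higher: GEMIN2 (by 0.97), TTI2 (0.51), MED15 (0.49), RFC4 (0.43), PPP2CA (0.42) and KEAP1 (0.30). These pairs were less depleted than one of their sgRNAs with non-targeting partners. In 5 of the 6, all but KEAP1, the sgRNAs lay 3 to 20 bp apart by their names. Of all 520 tested genes, 152 had sgRNAs less than 25 bp apart. A link between spacing and these 6 pairs was not tested.

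The spacing of the sgRNAs was looked at for all pairs, as a description. All sgRNAs of a gene carried one transcript label, their distance had a median of 62 bp and ranged from 1 to 994 bp, and 324 pairs targeted the same strand and 219 opposite strands. Below 25 bp apart, 27 of 152 tested genes (17.8%) were below both single sgRNAs. From 25 to 100 bp there were 56 of 139 (40.3%), from 100 to 300 bp 52 of 109 (47.7%) and from 300 bp on 46 of 120 (38.3%). The median of the pair minus the stronger sgRNA was -0.05, -0.24, -0.50 and -0.17 in these bins. The stronger sgRNA's own median growth was -0.79, -0.61, -0.86 and -0.27 in the same order. Whether this level or the spacing set the shares was not tested. Below 25 bp, 13 of 110 same-strand pairs (11.8%) and 14 of 42 opposite-strand pairs (33.3%) were called. From 25 bp on the shares were 85 of 203 (41.9%) and 69 of 165 (41.8%).

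Large gains occurred over a range of spacings. The sgRNAs of PPCDC lay 32 bp apart, those of CENPM 34 bp, UBA3 44 bp, GAPDH 186 bp, SMG5 228 bp and PPCS 393 bp. The sgRNAs of PARP2 lay 6 bp apart, those of BARD1 11 bp and those of DNMT1 18 bp. Of these genes DNMT1 was called below both in growth (by -0.60), and PARP2 and BARD1 were not. For DDX11 the distance was 439 bp and for MUS81 316 bp, each on opposite strands, and for FANCE 40 bp and ATM 34 bp on one strand. Of the 28 genes that gained in niraparib response (below), 2, 13, 5 and 8 fell into the bins from the closest to the widest.

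The order of the sgRNAs in the construct made no detectable difference. Growth of the one order against the other was called in 0 of 509 genes and 0 of 1483 non-targeting pairs by edgeR (35 genes, 6.88%, and 66 non-targeting pairs, 4.45%, at an unadjusted p under 0.05). The smallest adjusted p was 0.449, and the median absolute difference between orders was 0.15 log2 units for genes and 0.10 for non-targeting pairs. DESeq2 was not run on the orders.

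CRISPRi acts on a stretch of DNA, so the starts of other genes near each target were also listed. Of the 543 genes, 448 were matched by symbol or gene ID to RefSeq promoter windows, 140 of them with several starts. Another protein-coding start within 1000 bp was listed for 98 of the tested genes (18.8% of 520). The share of genes called below both was 34.7% with such a listed neighbour and 34.8% among all other tested genes. Those others include genes matched to no promoter window (95 of the 543), whose neighbours were not looked up. The shares therefore do not compare genes with and without a neighbour. MRE11A is 140 bp from the start of ANKRD49 on the other strand, SMG5 107 bp from TMEM79 and BRCA1 82 bp from NBR1. EME1 is 45 bp from MRPL27, RMI1 144 bp from HNRNPK and BRCA2 145 bp from ZAR1L, each on the other strand. The part of these neighbours in the growth values was not tested.

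Niraparib response is the log2 ratio of the niraparib endpoint to the reference endpoint, again set to 0 for non-targeting pairs. By edgeR, 108 of 520 pairs (20.8%) were lower than the controls and 92 (17.7%) higher, against 16 (1.08%) and 8 (0.539%) of the 1485 non-targeting pairs. The authors' deposited scores were divided by a constant of 7.19 to 8.04 for the reference arm and of 4.98 to 5.40 for the niraparib arm, which have the size of cell doublings although no source used here names them. When the change in the niraparib arm was scaled to the reference by those constants, 226 pairs were lower and 13 higher. The count of higher pairs therefore depended on this scaling.

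In response, 28 of 520 genes (5.38%) were lower than both single sgRNAs, against 0 of 1485 non-targeting pairs (40 at an unadjusted edgeR p under 0.05, and 0 with DESeq2). Another 4 genes (0.769%) were higher than both, against 2 non-targeting pairs (0.135%). Without replicate 1 of 2022 only 1 of these 4 was called, the 2023 screen alone called 0 of them, and 0 were called in both screens. Of the 28, 23 (82.1%) were lower in 4 of 4 cultures. The differences from the nearer sgRNA ran from -1.52 to -0.21 with a median of -0.61. With scaling 79 genes were lower, and all 28 were among them. Without replicate 1 of 2022 the count was 23, of which 20 were among the 28. The 2022 screen alone called 17, the 2023 screen alone 20, and 11 were called in both. The screens themselves were not called different in any gene (62 at an unadjusted edgeR p under 0.05, smallest adjusted p 0.264). Growth was also called below both for 13 of the 28, and for the other 15 the gain was in response alone, which is a matter of which tests passed and not a tested difference between the readouts.

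The largest difference was in DDX11, a helicase that unwinds DNA at replication forks and supports cohesion. Its pair had 702 and 1096 reads at the reference endpoint in 2022 and 435 and 527 in 2023, and 128, 151, 75 and 66 after niraparib. The response was -2.00, -2.52, -2.73 and -3.05, whereas the sgRNAs alone were between -1.24 and -0.65 and between -0.56 and -0.40. No pair value overlapped a single value, and the difference from the nearer sgRNA was -1.52 (SE 0.11, edgeR adjusted p = 2.47e-18). In growth the DDX11 pair was at -0.56 ± 0.31 (SD, n = 4) and did not pass the test against both sgRNAs. Its response also differed from the sum of the single responses, by -1.04 (adjusted p = 1.97e-09).

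ATM, the kinase that signals DNA double-strand breaks, gave little response with single sgRNAs. These were at values of -0.07 to 0.22 and -0.33 to 0.06. The pair gave -1.14, -0.85, -1.99 and -2.02, below every single value, with the 2023 cultures lower than the 2022 cultures. The difference was -1.30 (SE 0.15, edgeR adjusted p = 1.23e-08), and pair growth was likewise called, at -0.91 ± 0.26 (SD, n = 4) against -0.05 and -0.11.

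The Fanconi anemia pathway repairs crosslinked DNA through a core complex that ubiquitinates FANCD2 and FANCI. Of its 16 genes, 6 gained in response, where 28 of all 520 genes (5.38%) did. They were FANCC, FANCE, FANCF, FANCL, C17orf70 (now FAAP100) and FANCI, of which all but FANCI belong to the core complex. FANCE was at -1.84, -1.79, -1.68 and -2.26 as a pair, with sgRNAs between -0.68 and -0.45, a difference of -1.28 (SE 0.11, edgeR adjusted p = 4.93e-14). FANCC was at -0.55, -1.37, -1.53 and -1.51, with sgRNAs between -0.48 and -0.21, and FANCF at -1.5, -1.91, -1.58 and -1.64, with sgRNAs between -1.01 and -0.54. In each of these 3 genes the pair was lower than both sgRNAs in every culture. A pair below its nearer sgRNA in every culture was a condition for naming them by size. The differences were -0.85 for FANCC (adjusted p = 5.77e-12) and -0.72 for FANCF (adjusted p = 2.98e-07). FANCA (-1.82 ± 0.17; sgRNAs -1.16 and -1.64), FANCB and FANCD2 responded strongly with single sgRNAs already and were not called. The list median of the pair minus the nearer sgRNA was -0.30, against 0.00 over all genes tested. Leaving out 1 culture gave 4 to 7 genes, with 4 without replicate 2 of 2022 or without replicate 1 of 2023.

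Homologous recombination had 8 of 29 genes below both in response, where 5.38% of all 520 genes were. The 8 were ATM, BRCA2, MCM9, PALB2, RAD51B, RAD54L, SFR1 and XRCC2. RAD51B, a recombination mediator, was at -1.82, -2.08, -1.97 and -1.89 with its pair and between -1.37 and -0.75 with single sgRNAs, a difference of -0.73 (SE 0.12, edgeR adjusted p = 7.96e-06). MCM9, a helicase related to the MCM proteins, was at -0.85 ± 0.10 (SD, n = 4) against -0.24 and -0.25, with no effect on growth (-0.04 ± 0.15). RAD54L was at -2.19 ± 0.59 against -1.59 and -1.33. Leaving out a culture gave 5 to 8 genes of this list, 5 without replicate 1 of 2023.

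The BRCA2 pair had the lowest response of all, -4.44, -3.68, -6.02 and -6.35, with 7, 31, 5 and 2 reads left after niraparib. Its stronger sgRNA was at -2.64, -4.22, -4.51 and -4.37, so the pair was lower in 3 of 4 cultures. The difference of -1.20 (SE 0.30, edgeR adjusted p = 0.0109) was lost without replicate 1 of 2022 (-0.77) and under 5 of 14 alternatives in all, with adjusted p of 2.02e-06 to 0.966. PALB2, which bridges BRCA1 and BRCA2, was at -1.52, -1.45, -3.12 and -2.70, and its difference of -0.53 (adjusted p = 0.0207) was lost under 7 of 14 alternatives, including the omission of replicate 1 of 2022 (-0.33) and of replicate 1 of 2023 (-0.40). BRCA1 (-2.82 ± 0.18, SD, n = 4, against -1.64 and -2.48) and BARD1 (-4.47 ± 0.68 against -3.28 and -4.13) were not called. BRCA1 passed with the scaled response (-0.69, adjusted p = 0.00342, and 0.00342 to 1 over all alternatives).

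In other lists fewer genes were called. Base excision repair had 1 of 6 (POLB), structure-specific nucleases and POLQ 1 of 6 (MUS81), RNase H2 1 of 3 (RNASEH2C) and the replisome 2 of 21 (RFC2 and WDHD1), where 5.38% of all genes were called. The replisome count was 0 without replicate 2 of 2022 and in the 2022 screen alone, and 1 without replicate 1 of 2022 or replicate 2 of 2023, whereas base excision repair had 2 without replicate 1 of 2022 (POLB and XRCC1) or replicate 1 of 2023 (POLB and DNPH1). The other 11 lists had 0 of 65 genes below both (4 at an unadjusted edgeR p under 0.05, and 0 with DESeq2). MUS81, which cuts branched DNA, gave a clear case without any growth effect. Its single sgRNAs were between -0.42 and -0.34 and its pair at -1.35, -1.59, -1.27 and -0.99. The difference was -0.91 (SE 0.08, edgeR adjusted p = 4.04e-14), with pair growth at -0.12 ± 0.08 (SD, n = 4). POLB was at -2.47, -2.84, -2.92 and -3.91 with its pair, where the stronger sgRNA was between -2.55 and -2.12 and the weaker between -1.75 and -1.44. Its difference of -0.70 (SE 0.10, adjusted p = 6.41e-07) was largest in replicate 2 of 2023. RNASEH2C was at -1.09 ± 0.23 against -0.29 and -0.35, a difference of -0.75 (adjusted p = 2.16e-05). SEPSECS, of selenocysteine synthesis, was at -1.58, -1.69, -0.93 and -0.42 as a pair, a difference of -0.66 (adjusted p = 8.03e-05) that did not pass in the 2023 screen alone (-0.40).

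Several genes with a strong response gave no gain. The XRCC1 pair was at -1.92, -4.91, -3.51 and -2.74 with 63, 20, 32 and 41 reads left, its stronger sgRNA at -2.38, -3.12, -3.37 and -3.40, so the order changed between cultures and the difference of -0.14 (SE 0.18) was not called. It passed only without replicate 1 of 2022 (-0.81, edgeR adjusted p = 0.00737, and 0.00737 to 1 over all alternatives). C4orf27, now HPF1, the cofactor that directs PARP1 to serine, was at -2.29 ± 0.15 (SD, n = 4) with its pair against -0.95 and -2.09. PARP1 was the most protective gene, at 2.75, 2.04, 2.28 and 2.42 as a pair and between 1.72 and 2.70 with single sgRNAs. The PARP1 pair was higher than both sgRNAs in every culture but by only 0.18 (SE 0.06, adjusted p = 0.163). It differed from the sum of the single responses by -1.87 (adjusted p = 2.38e-22). PARP2 (0.00 ± 0.20) and TP53BP1 (0.36 ± 0.43) were not called against their sgRNAs either.

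The 4 genes higher than both sgRNAs included MBTPS2, INPPL1 and RIF1. MBTPS2, a membrane protease that activates transcription factors of sterol synthesis, was at 1.04, 1.04, 1.45 and 1.42 with its pair and between 0.27 and 0.84 with single sgRNAs. INPPL1 was at 0.83, 0.79, 0.88 and 0.55 against 0.18 to 0.33. Both pairs were strongly depleted in growth, -3.15 ± 0.35 and -1.78 ± 0.32 (SD, n = 4), and with the scaled response their differences fell from 0.60 to 0.20 and from 0.50 to 0.02 and were not called. MBTPS2 was also lost without replicate 1 of 2022 (0.54), in each screen alone (0.55 and 0.65) and in one of the orders (0.53). INPPL1 was also lost in the 2023 screen alone (0.44) and in each order alone (0.46 and 0.54).

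RIF1, which with 53BP1 protects DNA ends from trimming, responded less as a pair than with single sgRNAs. These were at -0.61 to -0.36 and -0.72 to -0.60. The pair was at 0.27, -0.28, -0.28 and 0.07, around the controls and above every single value. The difference was 0.43 (SE 0.09, edgeR adjusted p = 0.00122), and it held with the scaled response (0.40) but not without replicate 1 of 2022 (0.36), without replicate 2 of 2023 (0.34), in the 2023 screen alone (0.38) or in one of the orders (0.27). In growth the same pair was lower than both sgRNAs, -1.23 ± 0.28 against -0.73 and -0.64 (SD, n = 4).

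Against the sum of the single responses, 41 pairs (7.88%) were lower and 58 (11.2%) higher, against 4 (0.269%) and 4 (0.269%) of the 1485 non-targeting pairs, and without replicate 1 of 2023 27 were lower. Of the 28 genes that gained, 12 were below the sum, 2 above it and 14 did not pass the test against it. BARD1, whose sgRNAs each averaged below -3, was 3.09 above its sum (edgeR adjusted p = 3.41e-08). Against the stronger sgRNA in both positions, 8 of 447 genes (1.79%) responded more and 3 (0.671%) less. Those responding more were ATM, BAP1, CYB5B, DNPH1, FANCE, MCM9, MUS81 and POLB. FANCE was at -1.89 ± 0.25 (SD, n = 4) with different sgRNAs and -0.44 with the repeated one (difference -1.46, adjusted p = 6.2e-05), and ATM at -1.5 ± 0.59 and -0.29 (difference -1.21, adjusted p = 0.000601). ATRIP, COPS5 and LRRC45 responded less than with the repeated sgRNA. Leaving out a culture gave 3 (without replicate 1 of 2023) to 7 genes responding more, with 5 without replicate 2 of 2023. It gave 1 responding less, except for 5 without replicate 2 of 2022.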

How the data were processed

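The authors deposited raw counts of reads per dual-sgRNA construct, and the values are whole numbers whose totals differ by library (182.6 to 460.7 megareads). Per the labels, the sgRNA loci of extracted DNA were amplified by PCR and no molecular identifiers are named, so reads are not independent molecules. Bowtie2 2.3.4.1 is named in the submitters' processing notes without its role. The deposited phenotype tables hold log2 scores; they were used only to recover the constants by which the authors divided them. The genome build of the sgRNA positions is not given in the sources used here.

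The counts of both orders of a pair were summed and kept at a mean of at least 50 reads over the 4 T0 libraries. Per-culture values are log2 ratios with 1 added to each count, relative to the total of 3025 control constructs holding 2 non-targeting sgRNAs. All 12 libraries entered edgeR 4.0.16 quasi-likelihood fits in R 4.3.3, with a block per culture and a term per arm within each screen (4 residual degrees of freedom, biological coefficient of variation 7.15%), and contrasts were averaged over the screens. SEs come from within the screens and leave out the difference between them. The block rests on the labels, by which the T0 sample and both arms came from one culture. Same-numbered libraries deviated together only weakly (r from -0.0156 to 0.171 over 6 pairs of arms). The 2 cultures of a screen are called biological replicates in the labels.

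For the gain, log summed counts of one sgRNA over its 110 constructs with non-targeting partners (106 for a non-targeting sgRNA) were the offset. The fit was made once for each sgRNA, and the larger of the 2 p-values was kept where both differences had one sign. The nearer sgRNA is the one with the smaller difference from the pair, and the stronger sgRNA is the one with the lower growth. Adjustment was by Benjamini-Hochberg over 520 genes and 1485 non-targeting pairs (2005 features), with a threshold of 0.05. The error of the single-sgRNA counts is not part of the SE. On simulated data this growth test recovered 83 of 100 changes of -0.5 and 97 of 100 of -1, with 1 false call among 320 genes and 4 among 1485 non-targeting pairs. Unchanged pairs were simulated around the counts of the stronger sgRNA, which also served as an offset, with noise at the fitted dispersion trend. Error in the single-sgRNA counts and deviations of single constructs beyond that trend were not simulated. The false calls therefore do not cover them. Constructs with different sgRNAs were compared with those holding the stronger one in both positions, and one order with the other, in fits over 24 columns.

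Named genes were those with the largest differences among genes called and of one sign in 4 of 4 cultures (12 for growth, 10 for each direction of response), 12 genes always given, and up to 4 examples per gene list. For genes named by the size of their difference, one sign in 4 of 4 cultures was thus fixed by the rule and adds no support. Genes outside this rule that are named to complete a count, as in comparisons with the repeated sgRNA or of pairs above the stronger sgRNA, were chosen after their values were seen. Some genes within the counts are not reported here by name. The members and lists were chosen with earlier results of these data known. Promoter sequences, gene starts and current symbols are from RefSeq, GRCh38.p14.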

Additional observations from a re-analysis of the deposited data

How the results depend on the processing

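Over 201 comparisons of a count with its alternative, 167 stayed within 1.5 times of the value reported. The 167 include counts that were 0 both times, as for growth above both sgRNAs, the order of the sgRNAs and the screen difference in growth. Of 32 named results that passed, 22 did so under every alternative run for them (13 of 16 in growth and 9 of 16 in response). Without the replicate block, the paired fit's 181 growth gains became 179 and its 28 response gains 23, and the counts against the controls became 372 lower and 4 higher in growth and 108 lower and 86 higher in response; no count moved by over 1.5 times.

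Leaving out one culture at a time gave 142 to 164 growth gains, 20 to 29 response gains, 1 to 5 genes responding above both, 27 to 35 below the sum of single responses, 40 to 50 lower and 6 to 8 higher in growth than the repeated sgRNA, and 3 to 7 lower and 1 to 5 higher in response. The 2022 screen alone gave 17 response gains, 52 pairs with a higher response than the controls, and 16 below and 33 above the sum of single responses. The 2023 screen alone gave 57 with a higher response, 26 below the sum and 1 above both. One order alone, as the sgRNA names sort, gave 59 with a higher response, 20 below the sum, 15 response gains and 2 above both. The opposite order gave 118 growth gains, 56 with a higher response, 22 below and 35 above the sum and 1 above both. With the niraparib change scaled to doublings, 226 pairs had a lower and 13 a higher response, 79 gained in response and 2 were above both. The cause of these differences was not tested, beyond fewer reads or libraries where those were left out.

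Results that changed sign were not called in the fit reported. In growth, leaving out one culture gave -0.10 (without 2022 replicate 2) to 0.02 (without 2022 replicate 1) for BARD1, -0.19 to 0.03 for BRCA2 and -0.12 to 0.06 for POLB (0.00 without 2022 replicate 1). In response it gave -1.11 to 0.17 for BARD1, -0.15 to 0.02 for DNMT1 and -0.81 to 0.34 for XRCC1 (0.06 without 2023 replicate 1). In 2022 alone growth of PARP2 was -0.01, and response was 0.02 for BARD1 and 0.06 for PARP2. In 2023 alone POLB growth was 0.06 and XRCC1 response 0.23. In sorted order growth was 0.03 for BRCA2 and 0.05 for POLB, and response 0.07 for BARD1 and 0.26 for DNMT1. In the opposite order BARD1 growth was 0.06. Pairs with few reads after selection, such as PPCS and BRCA2, have the least certain sizes. TMM and DESeq2 size factors gave 365 lower and 7 higher pairs in growth each.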
